A study of Mus musculus with 9 samples.

Results

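Genes of 4 signalling systems by which endothelial cells (ECs) set vessel tone, growth and leakiness were described in sorted lung ECs: apelin, adrenomedullin, endothelin and nitric oxide. The set was chosen by gene symbol, with earlier results of these data known. It held 10 genes, Apln, Aplnr, Adm, Calcrl, Ramp2, Ramp3, Edn1, Ednra, Ednrb and Nos3. A probe set naming the gene alone was found for 9 of them among 18193 genes measured, and Ednra, the endothelin A receptor, was not analysed here. Levels are log2 values of an array platform that reads the 3-prime part of transcripts, and a gene with several probe sets was represented by the one with the highest mean over the 9 arrays.

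The ECs came from NSG mice, an immunodeficient strain that lacks mature lymphocytes, in 3 groups of 3 arrays. In the first group lungs were healthy and the mice, of matched age, had received rat IgG. In both other groups the tail vein had been injected with MDA-MB-231-LM2 cells, human breast cancer cells selected for growth in the lung, when mice were 6 to 8 weeks old. These animals were then given rat IgG, or the VEGFR2-blocking rat antibody DC101 at 40 mg/kg, on days 21 and 24, and lungs were taken on day 25. By the study's account, the mice analysed were picked for similar loads of lung metastasis, as read by bioluminescence. Cells were sorted from the whole lung by CD31 and by the absence of blood, epithelial, fibroblast and cancer cell markers, so ECs near to and far from metastases were measured together. The labels speak of biological replicates without saying whether each is 1 mouse, and p-values then measure the spread between these samples.

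Apelin, the product of Apln, is a secreted peptide that is known as a marker of sprouting tip cells and, in the lung, of aerocytes, the wide capillary cells of gas exchange. Its receptor APJ, encoded by Aplnr, marks the general capillary cells. Adrenomedullin (Adm) is a dilating and barrier-protecting peptide, and its receptor forms when the calcitonin receptor-like receptor (Calcrl) pairs with an accessory protein, RAMP2 or RAMP3. Endothelin 1 (Edn1) is a strong constrictor made by ECs, and the B receptor (Ednrb) on ECs clears it and triggers nitric oxide release. Endothelial nitric oxide synthase (Nos3) makes the nitric oxide that relaxes neighbouring smooth muscle. Apln and Adm are textbook targets of hypoxia, and both also respond to growth signals in vessels.

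Within each group, Pearson's r between arrays over all genes was 0.983 to 0.991. DC101 replicates 1 and 3 and healthy replicate 3 each lay apart on 1 of the first 4 principal components. The 12 pan-endothelial markers had a mean level of 13.39 to 13.58 in every array, and 1 of them, Emcn, was called higher in metastatic lungs with IgG. For Gapdh, the 3-prime control signal exceeded the 5-prime one, which tracks RNA integrity, by a log2 difference of 0.692 to 0.766 in healthy arrays, 0.468 to 0.568 in metastatic arrays with IgG and 0.354 to 0.598 with DC101, so it moved along with each difference from healthy lungs given below. For Actb, the same difference was -0.111 to 0.0891 in healthy arrays, 0.0126 to 0.0909 with IgG and 0.0037 to 0.138 with DC101. These Actb ranges overlapped. The part of RNA integrity in the results was not tested.

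In ECs of metastatic lungs under IgG, the ligand genes Adm and Apln rose and the receptor gene Ednrb fell, while the other 6 genes did not pass the test. By limma with Benjamini-Hochberg adjustment over all genes, 2 of the 9 genes were thus called higher, where 3.93% of all genes were, and 1 was called lower, where 2.6% of all genes were. For 6 of the 9 genes the arrays of both groups were fully separate, against 27.6% of all genes. The median log2 change of the 9 genes was 0.12 and that of all genes -0.02, and the median absolute change was 0.48 against 0.15. All 9 genes were among the 9096 brighter genes, while the shares of all genes here and below include dim ones. When only the brighter genes were tested, 1345 of the 9096 were called, and 4 of the 9 (Apln, Adm, Ramp3 and Ednrb).

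**Figure D1:**
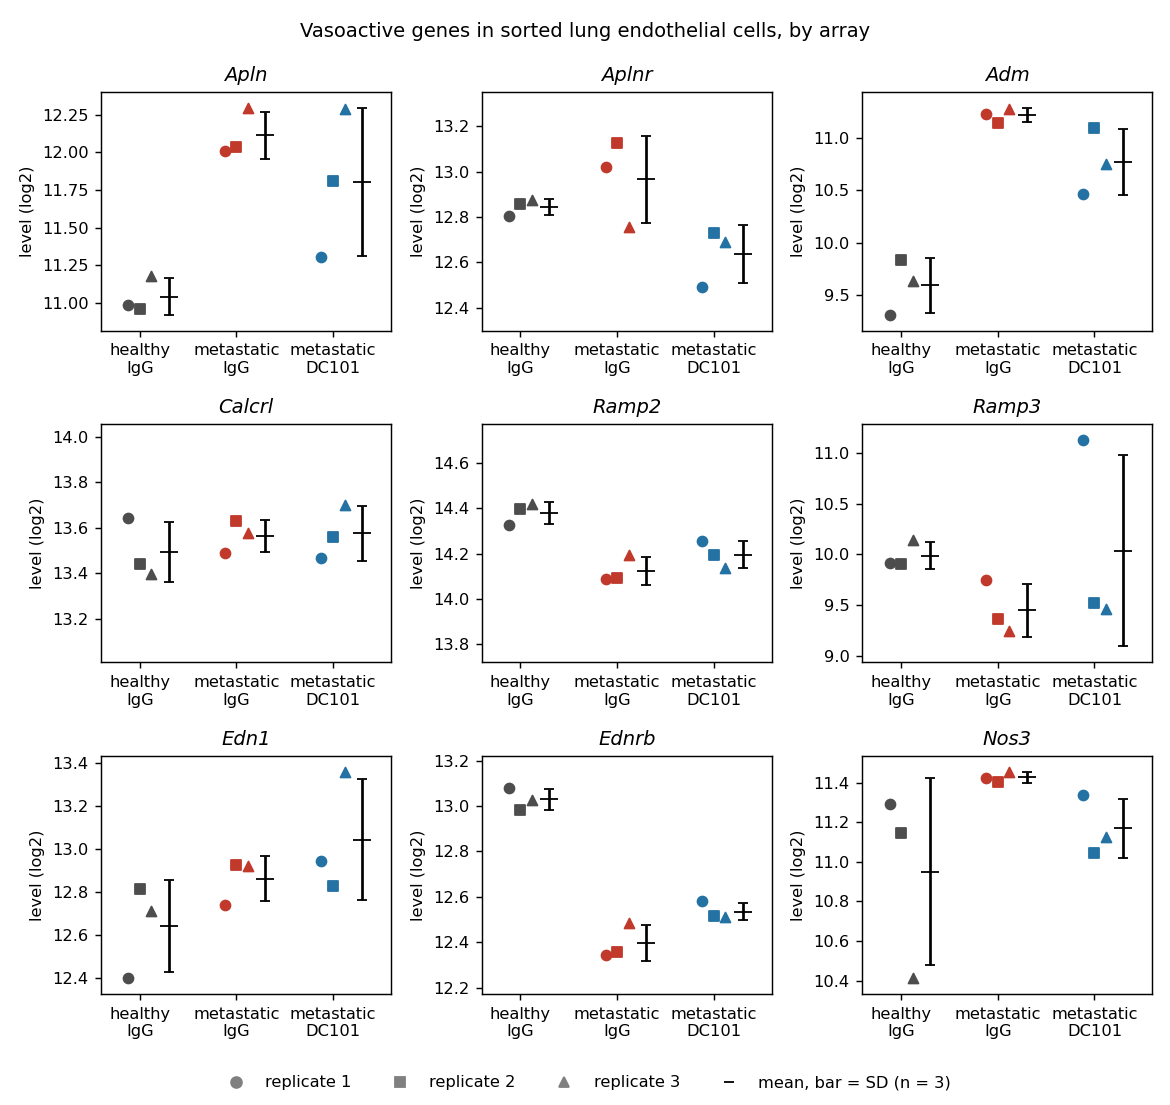
Level of each of the 9 measured genes (vertical axis, log2, each panel with its own range) in every array of the 3 groups; symbols mark the replicate and bars the mean and SD (n = 3 per group). Adm and Apln lie higher and Ednrb lower in all 3 metastatic IgG arrays than in all 3 healthy arrays, and single arrays stand apart for Ramp3 (DC101 replicate 1, 11.13) and Nos3 (healthy replicate 3, 10.41).

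The stretches of genome upstream of the 3 genes that were called are shown because they are where the transcription of these genes is started. Each is the run of 250 bases that ends just before the RefSeq transcription start, 5′ to 3′ on the strand of the gene, in build GRCm38.p6. Capitals mark the letters ACGTG or GCGTG on either strand (CACGT or CACGC when read here), the core of the element that hypoxia-inducible factors bind. Apln lies on the minus strand at chrX:48034854-48035103, Adm on the plus strand at chr7:110627407-110627656 and Ednrb on the minus strand at chr14:103843702-103843951.
Apln: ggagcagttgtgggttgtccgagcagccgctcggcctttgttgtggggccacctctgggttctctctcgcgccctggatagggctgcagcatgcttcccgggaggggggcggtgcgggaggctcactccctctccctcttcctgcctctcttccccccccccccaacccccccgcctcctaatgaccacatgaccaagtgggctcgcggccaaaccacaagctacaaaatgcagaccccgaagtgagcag
Adm: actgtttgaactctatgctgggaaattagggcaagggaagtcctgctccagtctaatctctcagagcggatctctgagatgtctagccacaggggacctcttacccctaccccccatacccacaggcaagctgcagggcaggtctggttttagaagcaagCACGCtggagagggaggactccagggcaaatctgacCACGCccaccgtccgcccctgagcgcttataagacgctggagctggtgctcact
Ednrb: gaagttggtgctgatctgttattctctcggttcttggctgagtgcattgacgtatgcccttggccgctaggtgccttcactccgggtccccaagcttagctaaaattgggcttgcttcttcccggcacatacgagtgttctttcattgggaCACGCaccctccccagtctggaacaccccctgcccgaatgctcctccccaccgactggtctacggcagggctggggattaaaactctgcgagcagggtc
The Adm window held the letters at 90 and 54 bases before the start and the Ednrb window at 99 bases before it, while the Apln window had no match. The promoter table had entries for 7 of the 10 genes, and 3 of these 7 windows held a match, where 38.6% of the 32851 promoters of the table did (44% of those of protein-coding genes). Aplnr, Ramp2 and Nos3 were not among the entries. The arrays measure transcripts and not binding, so a match is a description of the sequence.

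Apln stood at 10.98, 10.96 and 11.18 in the healthy arrays, at 12.01, 12.04 and 12.29 in metastatic lungs with IgG and at 11.30, 11.81 and 12.29 with DC101. All metastatic arrays thus lay above all healthy ones, and the DC101 arrays were spread from near the healthy range up to the highest IgG value. The metastatic IgG mean was 2.1-fold the healthy mean, a log2 change of 1.07 (SE 0.12, n = 3 per group, adjusted p = 0.00378). Apln was called in each of 15 alternative settings, with adjusted p-values of 0.000318 to 0.0444. In bulk samples, a change in the share of cells that express a gene and a change of RNA per cell cannot be told apart. With DC101, Apln was 0.76 above healthy (SE 0.23, adjusted p = 0.163) and 0.31 below IgG (SE 0.24, adjusted p = 0.821), and neither difference passed. DC101 replicate 1, one of the arrays that lay apart over all genes, had the lowest of the 3 values, and without it the differences were 1.01 and -0.06, still not called.

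Aplnr, the apelin receptor gene, had levels of 12.81, 12.86 and 12.87 in healthy lungs, 13.02, 13.12 and 12.75 in metastatic lungs with IgG and 12.49, 12.73 and 12.69 with DC101. The IgG group thus enclosed the healthy range, and the DC101 arrays were the lowest 3 of the 9. The change in metastatic IgG lungs was 0.12, with a 95% interval of -0.15 to 0.39 (adjusted p = 0.611). DC101 stood 0.33 below IgG (interval -0.64 to -0.01, adjusted p = 0.741), which did not pass. The other probe set of Aplnr gave -0.06 for that difference, so the low DC101 position was seen with 1 of its 2 probe sets.

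Adm had the largest difference of the 9 genes. It stood at 9.31, 9.83 and 9.64 in healthy lungs, at 11.23, 11.15 and 11.28 in metastatic lungs with IgG and at 10.47, 11.10 and 10.75 with DC101. The 3 groups did not overlap, in the order healthy, DC101, IgG. Metastatic lungs with IgG were 3.09-fold above healthy ones (log2 change 1.63, SE 0.14, n = 3 per group, adjusted p = 0.00169), and Adm was called in each of 16 alternative settings, with adjusted p-values of 0.000217 to 0.0393. DC101 lungs were 2.26-fold above healthy ones (log2 change 1.18, SE 0.20, adjusted p = 0.0304), a call that was lost in 9 of 16 alternative settings. They stood 0.45 below the IgG lungs (interval -0.84 to -0.06, adjusted p = 0.741), which did not pass over all genes.

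The probe set that stands for Adm is of a type that can cross-hybridise with other transcripts. A second probe set, of the plain type, read 8.49, 9.11 and 8.14 in healthy lungs, 10.22, 10.12 and 10.43 with IgG and 9.08, 9.86 and 9.66 with DC101. Both thus placed the IgG arrays highest, but in the second one a healthy array (9.11) lay above a DC101 array (9.08). In a fit across all probe sets, the second probe set was 3.19-fold above healthy with IgG (log2 change 1.67, SE 0.24, adjusted p = 0.0142), while the DC101 lungs were 0.95 above healthy (adjusted p = 0.197) and 0.72 below IgG (adjusted p = 0.801). The call of Adm in DC101 lungs against healthy ones therefore held for the brighter probe set and not for the other.

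The receptor side of adrenomedullin showed smaller differences. Calcrl stood at 13.64, 13.44 and 13.40 in healthy lungs, 13.49, 13.63 and 13.58 with IgG and 13.47, 13.56 and 13.70 with DC101, with all groups overlapping. Its change in metastatic IgG lungs was 0.07 (interval -0.17 to 0.31, adjusted p = 0.745), and its 2 other probe sets gave -0.03 and -0.05. The log2 difference between DC101 and IgG was 0.01 (interval -0.25 to 0.27).

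Ramp2, which directs the receptor to adrenomedullin, had 14.32, 14.40 and 14.42 in healthy lungs, 14.09, 14.09 and 14.19 with IgG and 14.25, 14.19 and 14.14 with DC101. Each metastatic array was below each healthy one, by a small step near the top of the scale, where 14.84 was the highest value of any probe set. The change with IgG was -0.26 (SE 0.09, adjusted p = 0.142) and did not pass, while a variance model with an intensity trend gave an adjusted p of 0.00373, in a range of 0.00373 to 0.291 over its alternatives. DC101 lungs were 0.19 below healthy ones (adjusted p = 0.396).

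Ramp3, the other accessory protein, stood at 9.91, 9.90 and 10.14 in healthy lungs, 9.74, 9.36 and 9.24 with IgG and 11.13, 9.52 and 9.46 with DC101. The IgG arrays lay below the healthy ones, and DC101 replicate 1 was above all other arrays. The change with IgG was -0.54 (SE 0.15, adjusted p = 0.0889). With metastatic IgG replicate 1 left out it passed (-0.68, adjusted p = 0.0401) and when only the brighter genes were tested (0.0446), in a range up to 0.512. The DC101 difference from healthy was 0.05 with all arrays and -0.49 without DC101 replicate 1, and that from IgG was 0.59 and 0.04, none of them called.

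Edn1, the constrictor peptide gene, had 12.40, 12.81 and 12.71 in healthy lungs, 12.74, 12.93 and 12.92 with IgG and 12.95, 12.83 and 13.36 with DC101. Group means ran upwards from healthy over IgG to DC101, with overlap between neighbours in that order. Its change was 0.22 with IgG (interval -0.09 to 0.53, adjusted p = 0.391) and 0.40 with DC101 (interval -0.01 to 0.82, adjusted p = 0.304) against healthy lungs. Neither passed, and DC101 lungs differed from IgG lungs by 0.18 (interval -0.19 to 0.55).

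Ednrb, the endothelin B receptor gene, stood at 13.08, 12.98 and 13.03 in healthy lungs, at 12.34, 12.36 and 12.49 in metastatic lungs with IgG and at 12.58, 12.52 and 12.51 with DC101. The healthy arrays were thus well above the rest, and the DC101 arrays lay just above those with IgG. The receptor gene fell to 64.5% of the healthy level with IgG (log2 change -0.63, SE 0.09, n = 3 per group, adjusted p = 0.00885). With DC101 it stood at 71.1% of the healthy level (log2 change -0.49, SE 0.10, adjusted p = 0.0474), a call that was lost in 13 of 17 alternative settings, each one that left out an array included. In the fit across all probe sets, the adjusted p of this difference was 0.0836. The difference between both treatments was 0.14 (interval -0.10 to 0.38, adjusted p = 0.812).

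The 3 probe sets of Ednrb all had their IgG mean below the healthy one and differed in where the DC101 group lay. The second brightest read 11.57, 11.34 and 11.22 in healthy lungs, 10.20, 10.28 and 10.35 with IgG and 11.18, 10.72 and 11.95 with DC101. It placed the IgG arrays 1.09 below healthy ones (SE 0.12, adjusted p = 0.00598 in a fit across all probe sets). The DC101 arrays were 1.0 above the IgG ones without overlap, which did not pass (SE 0.29, adjusted p = 0.801), and 0.09 below healthy ones. The third read 9.82, 9.63 and 9.55 in healthy lungs, 8.83, 9.02 and 9.39 with IgG and 8.93, 8.74 and 9.54 with DC101, and had changes of -0.59 with IgG (adjusted p = 0.1) and -0.59 with DC101 (adjusted p = 0.266) against healthy lungs. In both of these probe sets DC101 replicate 3 was the highest of its group, while in the brightest one it was the lowest by a narrow margin. Which transcripts each probe set detects is not given in the sources used here.

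**Figure D2:**
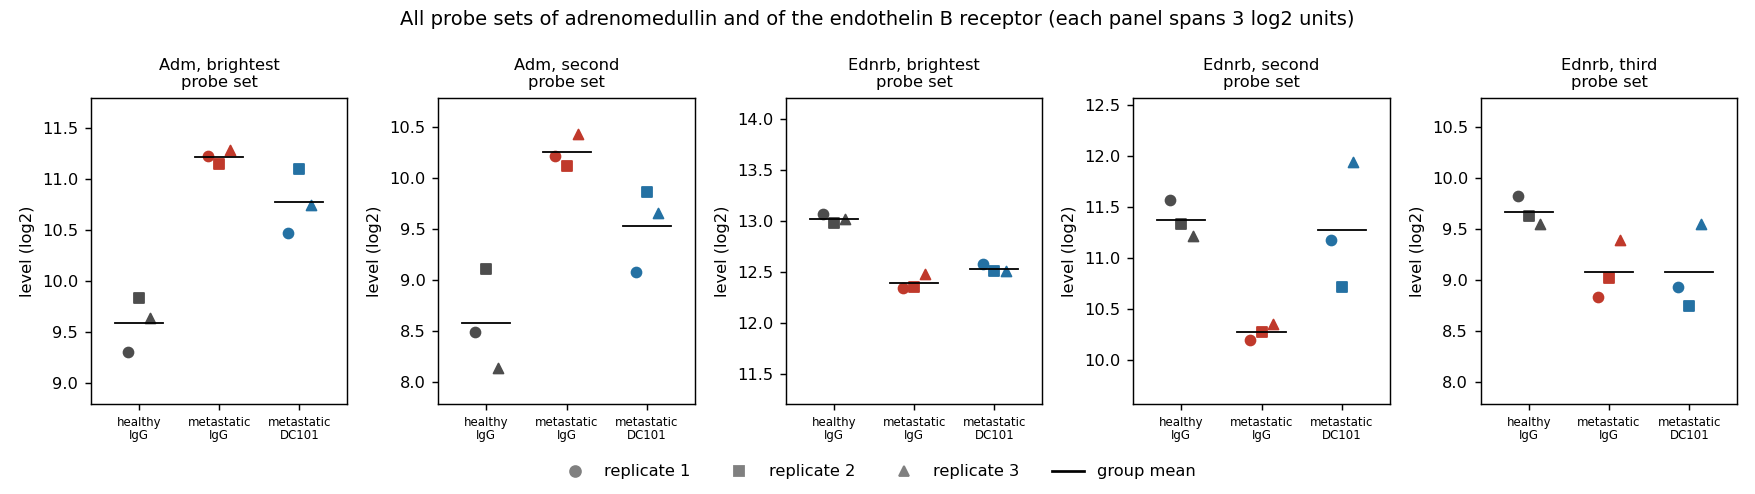
Level (vertical axis, log2, 3 units in each panel) of both probe sets of Adm and the 3 probe sets of Ednrb in every array, with symbols for replicates and lines for group means. The probe sets of each gene share the direction of metastatic IgG against healthy lungs, while the second Ednrb probe set alone puts the DC101 mean (11.28) close to the healthy mean (11.37).

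Ednrb marks aerocytes, and the mean level of 9 other aerocyte markers was also lower in each metastatic array than in each healthy one. It was 12.51 to 12.68 in healthy arrays, 12.09 to 12.28 in metastatic arrays with IgG and 12.25 to 12.33 with DC101, and 2 of the 9, Rprml (-1.04) and Nckap5 (-0.67), were called lower with IgG while 7 did not pass. Car4, the carbonic anhydrase that defines these cells, had a change of -0.28 (adjusted p = 0.113). The mean of 10 general capillary markers was 13.13 to 13.18, 12.74 to 12.84 and 12.85 to 13.09 in the same order, and 2 of the 10, Hilpda (-0.95) and Wif1 (-0.88), were called lower with IgG while 8 did not pass. The mean of 6 venous markers was higher in each metastatic array, at 11.16 to 11.37, 11.58 to 11.82 and 11.74 to 11.90. With IgG, 3 of these 6 (Ackr1, 1.71, Selp, 1.06, and Nr2f2, 0.66) were called higher and 1 (Slc6a2, -0.60) lower. Apln, the other aerocyte gene of the set, differed in the opposite direction. Aplnr, the general capillary gene of the set, had a change of 0.12 with IgG (adjusted p = 0.611). The part of a shift between these vessel cell types in the results was not tested.

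Nos3 stood at 11.29, 11.15 and 10.41 in healthy lungs, 11.42, 11.40 and 11.46 with IgG and 11.34, 11.05 and 11.12 with DC101. The IgG arrays lay close together and above all others, while healthy replicate 3 was far below its group. The change with IgG was 0.48 (SE 0.22, interval -0.04 to 1.0, adjusted p = 0.274), and without healthy replicate 3 it was 0.21, so that array held much of the difference. DC101 lungs were 0.26 below IgG lungs without overlap (interval -0.52 to 0.01, adjusted p = 0.741), and this did not pass. Against healthy lungs they were 0.22 higher with all arrays and 0.05 lower without healthy replicate 3.

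The second comparison asked what VEGFR2 blockade changed in metastatic lungs, among mice picked for similar metastatic load. None of the 9 genes was called by limma, and of all genes 0% were called higher and 0% lower. At an unadjusted p under 0.05 there were 2 of the 9, Adm and Aplnr, and 6.65% of all genes. The arrays did not overlap for 4 of the 9 genes (Adm, Aplnr and Nos3 lower with DC101, Ednrb higher), where 12.4% of all genes did not. The 95% intervals reached from -0.87 (Apln) to 1.58 (Ramp3) over the 9 genes, and the lowest adjusted p of any gene was 0.403. Leaving out each of the 6 arrays in turn gave no call either.

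In the third comparison, of DC101 with healthy lungs, Adm was called higher and Ednrb lower. This was 1 of 9 genes in each direction, where 1.58% of all genes were called higher and 0.835% lower. The arrays did not overlap for 6 of the 9 genes, against 23.1% of all genes, and these were Apln, Adm and Edn1 above and Aplnr, Ramp2 and Ednrb below the healthy range. The call of Adm was kept without DC101 replicate 1 (adjusted p = 0.0404). It was lost when DC101 replicate 2 (0.0688) or 3 (0.0782) or healthy replicate 1 (0.106), 2 (0.06) or 3 (0.0896) was left out, with differences of 1.02 to 1.30. Ednrb was lost whichever of the 6 arrays was left out (adjusted p of 0.093 to 0.174), with differences of -0.52 to -0.47. The comparisons share arrays: healthy arrays enter the first and the last, and each metastatic group enters 2 of them.

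**Figure D3:**
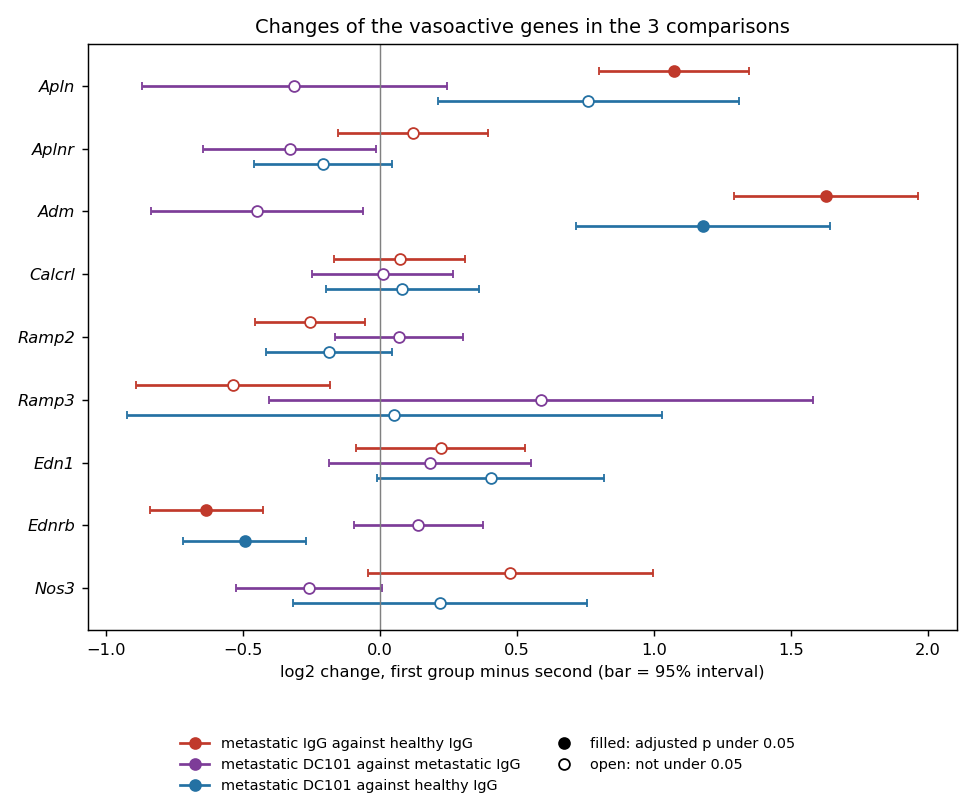
Log2 change (horizontal axis, first group minus second, with 95% intervals) of the 9 genes in the 3 comparisons, with filled points for an adjusted p under 0.05. Adm (1.63), Apln (1.07) and Ednrb (-0.63) are filled for metastatic IgG against healthy lungs, Adm (1.18) and Ednrb (-0.49) for DC101 against healthy lungs, and no point is filled for DC101 against IgG.

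Other genes of the 4 systems were taken from lists of the ligands, processing enzymes, receptors and signalling proteins. These lists are set beside 3.93% of all genes called higher and 2.6% called lower with IgG, and a median change of -0.02 over all genes. In the apelin list, 5 of 6 genes were measured. Besides Apln, only Prcp, a prolylcarboxypeptidase that trims apelin, was called in metastatic IgG lungs, with a rise of 0.74 (SE 0.11, adjusted p = 0.0118). Its levels were 12.42, 12.65 and 12.33 in healthy lungs, 13.29, 13.17 and 13.16 with IgG and 13.22, 13.09 and 13.14 with DC101, and it was also called with DC101 against healthy lungs (0.68, adjusted p = 0.0347). The second apelin receptor ligand, Apela, lay between 6.46 and 6.87 in all arrays. The 5 genes had a median change of 0.12 with IgG.

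In the adrenomedullin list, which also holds the related CGRP genes, 16 of 17 genes were measured, and 1 rose and 1 fell in metastatic IgG lungs, with a median of -0.07. The gene that fell was Ramp1, the accessory protein that makes Calcrl a CGRP receptor, from 8.18, 8.60 and 8.28 to 7.29, 7.73 and 7.54 (change -0.84, SE 0.16, adjusted p = 0.0249), with 7.49, 7.81 and 7.99 under DC101. Of the 3 RAMP genes, Ramp1 was the one that passed. However, its metastatic values, and its healthy values of 8.18 and 8.28, lay below the array medians of 8.32 to 8.33. Arrb2, an arrestin that ends receptor signals, was called lower with DC101 against healthy lungs (-0.68, adjusted p = 0.0363). Pam, the enzyme that amidates adrenomedullin, had a change of -0.21 with IgG (adjusted p = 0.329) and Adm2, a related peptide, one of -0.20, and neither passed. Lymphatic ECs depend on adrenomedullin, and of 7 lymphatic markers 4 (Prox1, Mmrn1, Reln and Itga9) were called higher with IgG. The other 3 did not pass, and among them Lyve1 had a change of -0.20. With DC101 against healthy lungs 0 of the 7 were called. The mean level of the 7 was 9.50 to 10.05 in healthy arrays, 10.82 to 10.99 with IgG and 10.49 to 10.99 with DC101, and its part in the Adm result was not tested.

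Of the 14 endothelin genes 13 were measured, and Ednrb was the only one called, in both comparisons with healthy lungs. Ece1, the enzyme that releases the active peptide, went from 13.90, 13.84 and 13.83 to 13.68, 13.66 and 13.64 with IgG, a change of -0.20 (adjusted p = 0.22). The groups did not overlap, but the step was small. Edn2 and Edn3, the other endothelin genes, changed by 0.22 and -0.19 without passing. The list had a median change of -0.12.

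In the nitric oxide list 26 of 31 genes were measured, of which 3 rose and 3 fell in metastatic IgG lungs, with a median of -0.14 (all genes: 3.93% higher, 2.6% lower, median -0.02). Nos2, the inducible synthase of inflamed tissue and macrophages, rose from 7.84, 7.90 and 7.78 to 8.73, 8.95 and 8.96 (change 1.04, SE 0.10, adjusted p = 0.00234). With DC101 it stood at 8.21, 9.04 and 9.03, a difference from healthy of 0.92 that did not pass (adjusted p = 0.0939), with replicate 1 again the lowest. The healthy values of Nos2, and 8.21 in DC101 replicate 1, lay below the array medians of 8.32 to 8.33. Slc7a1, which imports the substrate arginine, rose by 0.58 (SE 0.11, adjusted p = 0.0246), and Ddah1, which removes methylarginines that inhibit the synthases, rose by 0.42 (SE 0.10, adjusted p = 0.048). Klf4, a flow-responsive factor that favours Nos3 expression, fell by 0.38 (SE 0.08, adjusted p = 0.0448), and its relative Klf2 had a change of -0.28 (adjusted p = 0.232). With DC101, the mean of Klf4 was 13.38, near the healthy mean of 13.44, and the difference from the IgG mean of 13.06 did not pass (0.32, adjusted p = 0.741).

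Both subunits of soluble guanylate cyclase, the receptor for nitric oxide in smooth muscle and other cells, fell with IgG. Gucy1a1 fell by 0.81 (SE 0.18, adjusted p = 0.0452) and Gucy1b1 by 0.99 (SE 0.21, adjusted p = 0.0387). The IgG values of Gucy1b1, 7.06 to 7.74, lay below the array medians of 8.32 to 8.33. Its healthy values, 8.24, 8.32 and 8.74, lay around these medians. Gch1, which makes the cofactor of the synthases, had a change of -0.15, Cav1, the caveolar protein that restrains Nos3, one of 0.02, and Nostrin, a trafficking partner of Nos3, one of -0.19, and none passed. With DC101 against healthy lungs the only call in the list was Nos1ap, an adaptor of neuronal synthase, which was lower by 0.51 on the log2 scale (change -0.51, adjusted p = 0.0431).

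**Figure D4:**
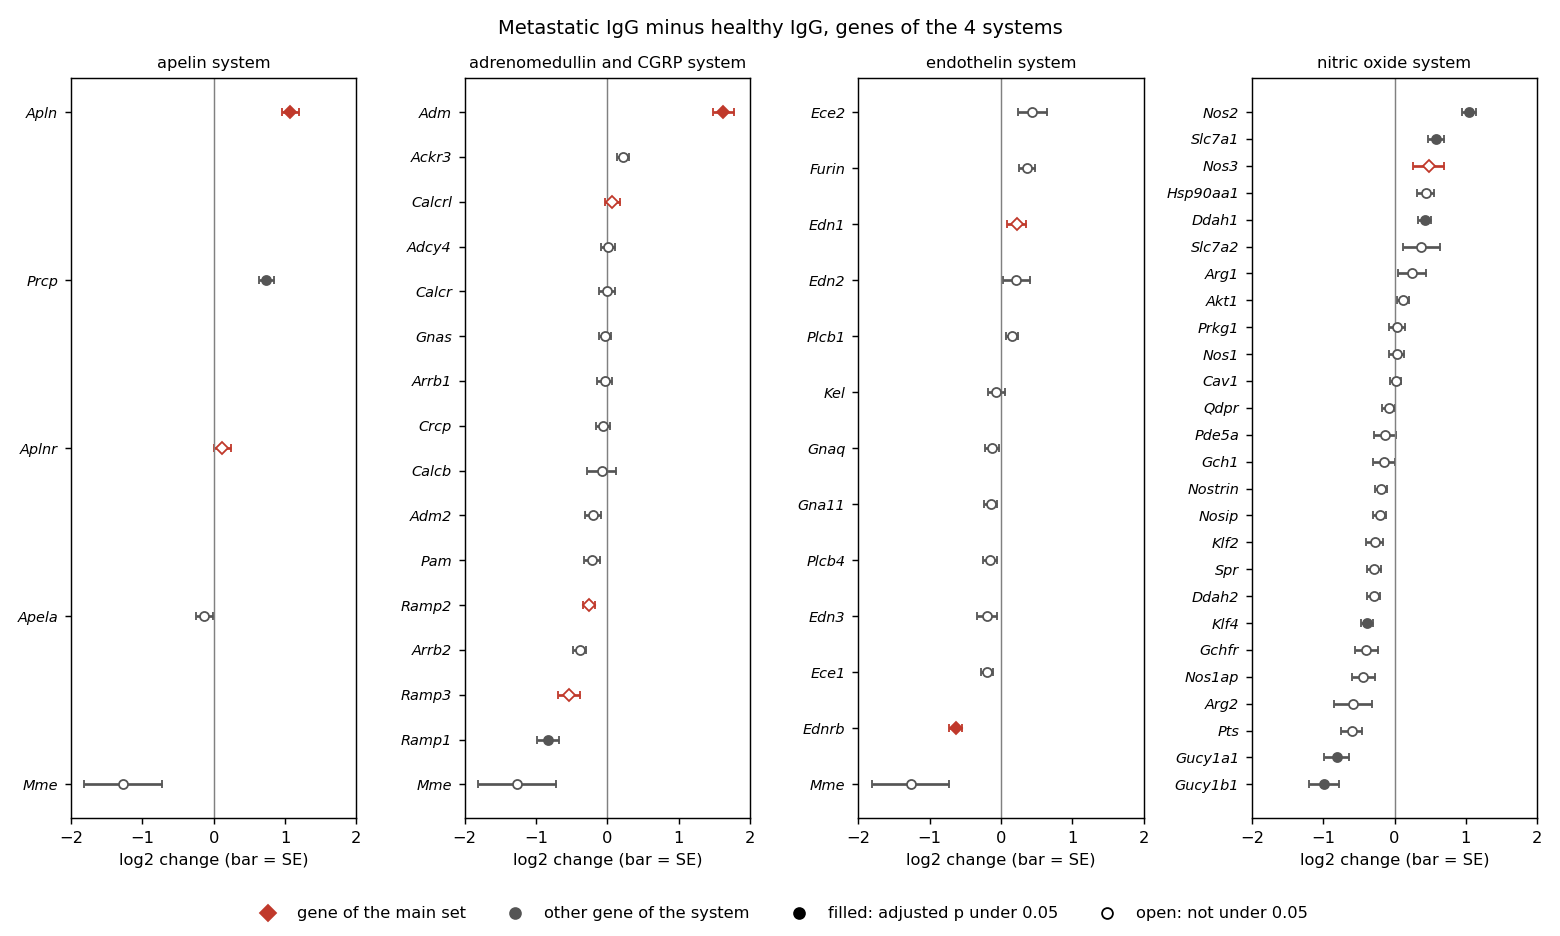
Log2 change of metastatic IgG against healthy lungs (horizontal axis, bars for the SE) for all measured genes of the 4 lists, with red diamonds for the 9 genes of the set, grey circles for the others and filled symbols for an adjusted p under 0.05. Filled symbols on the right are Apln, Prcp, Adm, Nos2, Slc7a1 and Ddah1, and those on the left are Ramp1, Ednrb, Klf4, Gucy1a1 and Gucy1b1.

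Markers of other cells that a sort could carry were set beside these genes. Of 12 mural and fibroblast markers, 3 (Myh11, Cnn1 and Dcn) were lower and 1 (Col1a1) higher with IgG, alongside Gucy1a1, Gucy1b1 and Ramp1. The other 8 did not pass, with changes from -0.57 (Pdgfra) to 0.10 (Tagln). The mean of the 12 was 9.54 to 9.70 in healthy arrays, 9.20 to 9.61 with IgG and 9.48 to 9.65 with DC101. Of 10 macrophage markers, C1qa (1.54), C1qb (1.38) and Mrc1 (0.73) were called higher with IgG, alongside Nos2, while the blood cell gene Ptprc had a change of -0.68 (adjusted p = 0.0614) and the macrophage gene Adgre1 one of 0.28 (adjusted p = 0.543). The macrophage list had a mean of 8.53 to 8.75 in healthy arrays, 8.88 to 8.96 with IgG and 8.49 to 9.0 with DC101. Of 8 lung epithelial markers 3 were lower and of 7 cycling cell markers 6 were higher with IgG, and the mean of the cycling list was 7.54 to 7.89 in healthy arrays, 10.45 to 11.34 with IgG and 9.85 to 10.86 with DC101. These values have a floor and no zero, so no marker can be said to be at 0. The part of other cells, or of cycling ECs, in the results was not tested.

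For each gene of the set the 3 genes with the most similar pattern over the 9 arrays were sought among 3759 genes with an SD of at least 0.3. They are a description, because the arrays share 3 groups and many genes follow the split between healthy and metastatic lungs. Adm was most like Gbp3, an interferon-induced GTPase (Pearson r 0.991), Rassf2 (0.984) and Vwa1, a matrix protein (0.983). Apln was most like Zfp982 (0.988), Serpinb9, an inhibitor of granzyme B (0.979), and Spata13 (0.975). Ednrb was most like Abi3bp, a matrix protein (0.993), Cytl1 (0.985) and Atp13a3 (0.984). The closest genes to Nos3 were Sfxn1 (0.935), Metrnl (0.928) and S100a6 (0.917), those to Ramp3 were Acadsb (0.943), Ttc39c (0.937) and Pknox2 (0.934), and those to Edn1 were Arhgap5 (0.926), Igf1 (0.916) and Angptl7 (0.915). Ramp2 followed Shpk (0.988), Ogn (0.984) and Mamdc2 (0.973), Aplnr followed Nmrk1 (0.956), Xrcc6 (0.9) and Sox4 (0.897), and Calcrl followed Ak5 (0.973), Syn2 (0.875) and Lrrn4 (0.874). Calcrl, Ramp2 and Aplnr had SDs of 0.103, 0.124 and 0.185 over the arrays, so their likeness rests on small differences.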

How the data were processed

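ECs of 3 groups of 3 samples, mapped from their titles, were profiled on Affymetrix mouse genome arrays after amplification of picogram amounts of RNA with a 3-prime kit. The authors deposited log2 expression values, made per the study's methods by robust multiarray averaging (RMA) in Chipster, with 1 column per array. The log base is not stated and was taken from the method. RMA equalises arrays, so a global change of RNA content is removed, and changes near the floor are understated. The number of arrays limits the precision.

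Probe sets with 1 gene symbol in the platform annotation (34945 of 45101) were used, and 64 control, 932 multi-gene and 9160 unnamed probe sets were left out. The brightest probe set stood for each of 18193 genes, and levels were not compared between genes. Each comparison used its own 6 arrays in limma 3.58.1 (R 4.3.3; lmFit and eBayes, two-sided), with Benjamini-Hochberg adjustment over all genes and a call at an adjusted p under 0.05. Single probe sets were fitted across all named probe sets. The fit was tested on simulated data. The genes, lists and naming rules were chosen with earlier results of these data known. All genes of the set are named, with every gene of the pathway lists called in a comparison and, by the naming rule, further ligands and enzymes. Alternatives were the mean over probe sets, probe sets of the plain type alone, bright genes alone, a joint fit of all arrays, the replicate block, an intensity trend, no variance moderation, array weights, pan-endothelial scaling and leaving out each array. Ednra was not analysed here. Promoter sequences are from RefSeq (GRCm38.p6).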

Additional observations from a re-analysis of the deposited data

How the results depend on the processing

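Under 9 alternative settings and leaving out each array, with the second and the third brightest probe sets added after seeing the data, 417 values of single genes were recomputed: 381 kept direction and call, 23 lost a call, 3 gained one, 10 values that were never called changed sign, and no called value reversed. The losses concern DC101 against healthy lungs, except Ednrb by the third probe set in metastatic IgG against healthy lungs (-0.59, adjusted p = 0.0949). In DC101 against healthy lungs, 2 genes were called, but 0 when probe sets were averaged, 0 with plain-type probe sets alone, 0 without variance moderation, 1 (Adm) after scaling to pan-endothelial markers and 1 (Adm) with the replicate number as a block (replicate block). Leaving out 1 array gave 0 to 1 there, and the cause was not tested. Arrays with the same replicate number did not deviate together when all genes were taken at once (r of -0.0543 to 0.0845). A pairing that touched only some genes would not show in this r. The block took the calls of all genes from 1188 to 689 and from 440 to 247. Over all genes, the calls of metastatic IgG against healthy lungs ran from 376 without variance moderation to 1777 with an intensity trend, and those of DC101 against healthy from 14 to 662, with all 9 arrays in 1 fit at the top. Without any 1 of the 6 arrays, they ran from 556 (without healthy replicate 1) to 759 and from 110 (without healthy replicate 1) to 361, so each array left out lowered them.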
